A study of Rattus norvegicus with 64 samples.

Results

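Gene expression in the hippocampus was compared with that in the cortex of the same ApoE4 rats that had received phosphate-buffered saline (PBS). The comparison used 16 of the 64 libraries of the series: 8 hippocampal and 8 cortical libraries, 1 of each from each of 8 rats, paired by rat number. Of these rats 4 were male and 4 female, and their numbers ran in blocks by sex. All carried the ApoE4 genotype; the labels do not say how the allele was introduced or which promoter drives it. Further groups served only for tests of whether the regional difference varied: ApoE3 rats given PBS, ApoE4 rats given doxorubicin, and the sexes within the ApoE4 PBS rats. Doxorubicin, an anthracycline chemotherapy drug, was dosed weekly at 2 mg/kg over 4 weeks from 5 weeks of age, with tissue taken 5 to 6 weeks after the final dose. The schedule of PBS and the age of the PBS rats are not stated separately.

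The hippocampus is a folded sheet of allocortex in which granule neurons of the dentate gyrus contact pyramidal neurons of the CA fields. The neocortex is layered, with upper layers that project mainly within the cortex and deep layers that project to the thalamus, brainstem and spinal cord. Both hold inhibitory neurons, astrocytes, microglia, oligodendrocytes and vessels, and the hippocampus borders the ventricles, where the choroid plexus and the ependyma lie. In bulk tissue, fewer cells of a type and less RNA per cell cannot be told apart.

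Hippocampal libraries held 12.6M to 15.8M counts (median 14.0M) and cortical libraries 12.3M to 15.7M (median 13.6M). Levels are given as CPM, counts scaled to a common library size after TMM, and differences as log2 of hippocampus over cortex from a fit paired by rat. The share of counts on mitochondrially encoded genes was 7.93% ± 0.742 in hippocampus and 9.10% ± 1.02 in cortex (SD, n = 8 each), lower in hippocampus in 7 of 8 rats (exact sign-flip permutation test, two-sided, p = 0.0234, adjusted over 5 library measures 0.0586). The smallest p that 8 pairs allow is 0.007812. In the order of the sample records, the libraries of the whole series ran in unbroken blocks by region. A batch that follows this order cannot be told apart from region.

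The markers of the 2 regions followed the labels in all 16 libraries. Prox1, the transcription factor of dentate granule neurons, ran from 71.0 to 106 CPM in hippocampus (median 89.7) and from 15.1 to 18.2 CPM in cortex (median 15.9), a log2 difference of 2.43 (SE 0.07, adjusted p = 1.135e-11). C1ql2, a secreted synaptic organiser of mossy fibre terminals, ran from 66.7 to 133 CPM in hippocampus (median 91.6) and from 3.34 to 6.75 CPM in cortex (median 4.27), a difference of 4.42 (SE 0.10, adjusted p = 6.156e-12). Rorb, a nuclear receptor of granular-layer neurons, ran from 4.48 to 10.7 CPM in hippocampus (median 6.92) and from 15.9 to 24.2 CPM in cortex (median 17.9), a difference of -1.35 (SE 0.15, adjusted p = 7.22e-06). For each of these genes every library of one region lay above every library of the other.

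**Figure D1:**
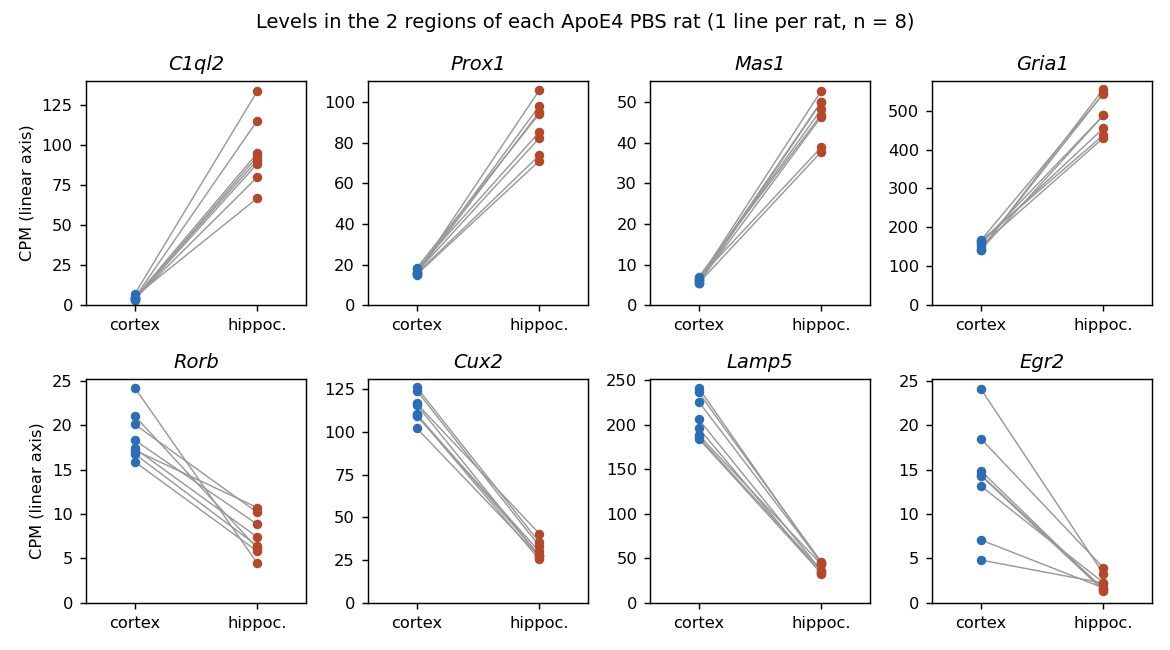
Level in CPM (linear axis from 0) of 8 genes in cortex (blue) and hippocampus (red), with 1 grey line per ApoE4 PBS rat (n = 8). C1ql2, Prox1, Mas1 and Gria1 are higher in hippocampus in all 8 rats, and Rorb, Cux2, Lamp5 and Egr2 are lower in all 8.

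Some hippocampal libraries stood apart in genes of neighbouring tissues. Summed choroid plexus markers were 13929 CPM in the hippocampal library of rat 7 and 6587 CPM in that of rat 26. The other 6 hippocampal libraries held 28.3 to 397 CPM and the cortical libraries 45.1 to 777 CPM. The cortical library of rat 19 was the highest of its region at 777 CPM, against 397 CPM in the hippocampus of that rat. The next cortical library, of rat 26, held 180 CPM. Summed markers of meningeal fibroblasts were 1420 CPM in rat 3, 1422 in rat 7, 891 in rat 22 and 694 in rat 26, against 226 to 347 CPM in the other 4 hippocampal libraries and 269 to 715 CPM in cortex. Counts of lists below are also given without rats 7 and 26, or without rats 3, 7, 22 and 26, where a count moved by over 1.5 times; both settings were chosen after seeing the data.

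**Figure D2:**
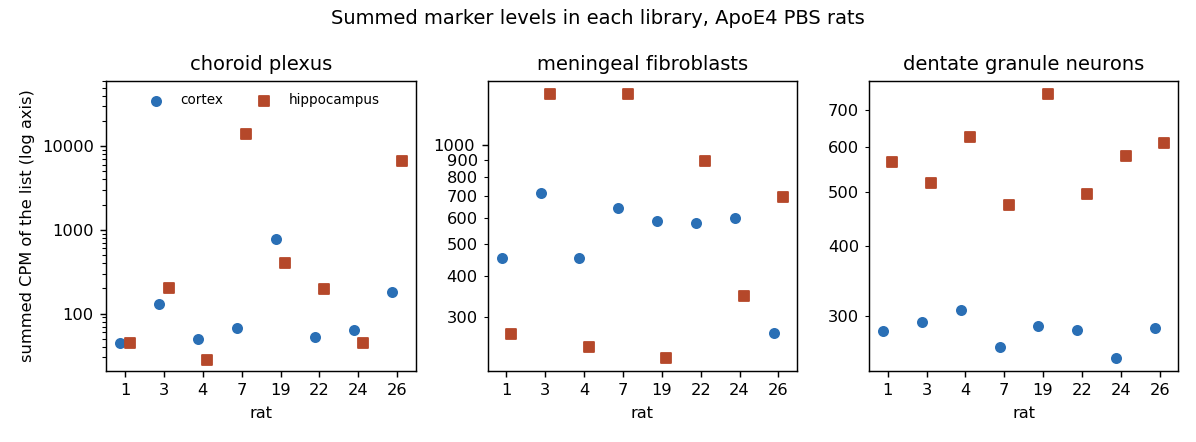
Summed CPM (log axis) of the choroid plexus, meningeal fibroblast and dentate granule markers in the cortex (circles) and hippocampus (squares) of each rat. Choroid plexus markers reach 13929 CPM in rat 7 and 6587 CPM in rat 26 in hippocampus, while dentate markers are higher in hippocampus than in cortex in every rat.

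Nearly as many genes were higher in the hippocampus as were lower. Of 14835 genes tested, 3576 (24.1%) were higher in hippocampus and 3603 (24.3%) were lower at an adjusted p under 0.05, 7179 (48.4%) in all, and the median log2 difference over all tested genes was 0.0056. A difference of at least 2-fold was called for 506 genes (3.41%) in the higher and 582 genes (3.92%) in the lower direction. For 2940 genes (19.8%) the 8 hippocampal and 8 cortical libraries did not overlap. These shares over all tested genes are the background for the list counts below. Without rats 7 and 26, 3310 genes were higher and 3496 lower, of which 3073 and 3195 were also called with all 8 rats. Without rats 3, 7, 22 and 26 the counts were 3104 and 3244, with 2773 and 2746 shared.

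Granule neuron genes of the dentate gyrus were higher in the hippocampus in 9 of 13 tested members and lower in none, with a median of 0.69. Of the 16 listed, 13 matched a row and all of these were tested. Pdyn, the prodynorphin precursor of opioid peptides, ran from 41.1 to 88.9 CPM in hippocampus (median 59.2) and from 14.9 to 26.0 CPM in cortex (median 22.7), a difference of 1.44 (adjusted p = 8.17e-09). Calb1, the calcium buffer calbindin, which granule neurons share with cortical neurons, differed by -0.04 and did not pass.

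Pyramidal neuron genes of the CA fields were higher in 10 of 15 tested members, lower in 1 and not past the test in 4, with a median of 1.07. Nr3c2, the mineralocorticoid receptor, ran from 67.0 to 96.7 CPM in hippocampus (median 81.9) and from 16.3 to 22.0 CPM in cortex (median 18.9), a difference of 2.09 (SE 0.07, adjusted p = 3.39e-11). Bok, a member of the BCL2 family, differed by 1.96, and the kainate receptor subunit gene Grik4 by 1.31; neither overlapped between regions. The member that was lower was Coch at -0.98.

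Genes of upper-layer cortical neurons were lower in the hippocampus in 12 of 14 tested members, with a median of -0.98. Lamp5, a lysosome-associated membrane protein family gene, measured 32.5 to 45.9 CPM across hippocampal libraries and 184 to 241 CPM across cortical ones, a difference of -2.40 (adjusted p = 5.06e-12). The ranges of the 2 regions were apart. Cux2, a homeobox gene of upper layers, differed by -1.89. Rgs8 (0.37) and Plcxd2 (0.19) were the members that were higher.

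Among deep-layer genes 11 of 19 tested members were lower, 3 were higher and 5 did not pass, with a median of -0.57. Foxp2, a forkhead factor of corticothalamic neurons, ran from 0.268 to 4.32 CPM in hippocampus (median 1.59) and from 10.6 to 14.2 CPM in cortex (median 12.3), a difference of -2.98. Tbr1, a T-box factor of deep layers, differed by -1.81 and Rprm by -2.47. Bcl11b, a zinc-finger factor of subcortically projecting neurons that is also made in the hippocampus, went the other way: 106 to 138 CPM in hippocampus against 29.7 to 42.7 CPM in cortex, a difference of 1.64.

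The genes with the largest differences among those of at least moderate level came from several families. Slc9a4, a sodium-proton exchanger, ran from 33.9 to 58.0 CPM in hippocampus (median 44.4) and from 1.15 to 3.39 CPM in cortex (median 2.11), a difference of 4.43. Cabp7, a calcium-binding protein, measured 237 to 340 CPM across hippocampal libraries and 14.0 to 28.0 CPM across cortical ones, a difference of 3.83. Shisa6, an AMPA receptor auxiliary protein, differed by 3.76 and Mas1, a receptor of the renin-angiotensin system, by 2.92. None of these overlapped between regions. Others in the same direction were Il16 (3.36), the neurotrophin gene Ntf3 (2.93), Vav3 (2.92), Rem2 (2.92), Rerg (2.84), Gpr161 (2.81), the mechanically gated channel gene Piezo2 (2.78), and Lrrc10b (3.62).

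In the lower direction, Sema3a, the secreted axon guidance cue semaphorin 3A, ran from 0.386 to 1.39 CPM in hippocampus (median 0.926) and from 17.8 to 22.9 CPM in cortex (median 21.8), a difference of -4.52 (SE 0.17, adjusted p = 1.78e-10). Rgs4, a regulator of G protein signalling, measured 44.5 to 76.5 CPM across hippocampal libraries and 397 to 505 CPM across cortical ones, a difference of -3.01. Every cortical library lay above every hippocampal library for both. Rasgef1c (-3.97), the fucosyltransferase gene Fut9 (-3.35), the diacylglycerol kinase gene Dgkh (-3.03), Epop (-2.88), Tmem196 (-2.87), Bmper (-2.78) and Cobl (-2.23), which encodes an actin nucleator, were also lower in 8 of 8 rats. Olr59, an olfactory receptor gene, differed by -3.92; reads of such a multigene family can be split between near-identical copies, so this value is uncertain.

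Inhibitory neuron genes were lower in 10 and higher in 5 of 24 tested members, with a median of -0.15. The shares over all tested genes were 24.3% lower and 24.1% higher. Vip, the vasoactive intestinal peptide of one interneuron class, measured 7.02 to 11.4 CPM across hippocampal libraries and 27.8 to 37.0 CPM across cortical ones, a difference of -1.86. Sst, the somatostatin gene, differed by -0.94 and Pvalb, the parvalbumin gene, by -0.87, both without overlap. The genes for GABA synthesis and vesicular loading moved little: Gad1 differed by -0.17 and passed, while Gad2 (-0.00) and Slc32a1 (-0.10) did not pass.

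Genes of striatal projection neurons, listed because the striatum lies under the cortex, were lower in hippocampus in 12 of 15 tested members, with a median of -1.05. Scn4b differed by -1.60 and Rasd2 by -0.72. Cortical neurons also express some of these genes, and the part of striatal tissue in these values was not tested. Of 11 tested thalamic genes 2 were higher, 2 were lower and 7 did not pass. Over all tested genes 24.1% were higher and 24.3% lower, so these counts were not above the background. Ramp3 differed by -1.46 and Plekhg1 by 0.85. Without rats 7 and 26, 4 of the 11 thalamic genes were lower, and without rats 3, 7, 22 and 26, 6 were.

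Genes of astrocytes, which take up glutamate and clear potassium, were higher in 12 and lower in 2 of 19 tested members, with a median of 0.16. Gfap, the intermediate filament of astrocytes, ran from 950 to 1207 CPM in hippocampus (median 1133) and from 493 to 673 CPM in cortex (median 590), a difference of 0.93 (SE 0.05, adjusted p = 7.94e-09). Agt, which encodes angiotensinogen, differed by 1.02 and the gap junction gene Gja1 by 0.53. All 3 ranged apart between regions. Slc1a2, the main glutamate transporter, was lower at -0.48.

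Microglial genes were higher in 6 of 17 tested members and lower in none, by at most 0.25, and no member was free of overlap; over all tested genes 24.1% were higher and 48.4% passed in either direction. Cx3cr1, the fractalkine receptor, differed by 0.22 and the complement gene C1qa by 0.21; with libraries scaled to the ERCC spike-ins neither passed. Myelin genes were lower in 10 of 20 tested members and higher in none, with a median of -0.18. Tspan2, a tetraspanin of myelin, measured 134 to 194 CPM across hippocampal libraries and 203 to 296 CPM across cortical ones, a difference of -0.52 without overlap. Without rats 3, 7, 22 and 26, 17 of the 20 were lower. Oligodendrocyte precursor genes were lower in 4 and higher in 2 of 14, where over all tested genes 24.3% were lower and 24.1% higher. Cspg5 differed by -0.26 and Ptprz1 by 0.33. In this list 1 member was higher without rats 7 and 26 or without rats 3, 7, 22 and 26.

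Choroid plexus genes were higher in 7 of 13 tested members, with a median of 2.95, and none was free of overlap between regions. Cldn2, a claudin of the choroid epithelium, ran from 0.33 to 211 CPM in hippocampus (median 2.16) and from 0.0778 to 9.53 CPM in cortex (median 0.529), a difference of 3.55 with an SE of 0.99 (adjusted p = 0.00966). Without rats 7 and 26, 1 of 10 tested members was higher and the median was 0.10. Without rats 3, 7, 22 and 26, 0 of 9 were higher and 4 were lower. These rats were set aside for high hippocampal levels of choroid plexus or meningeal markers, so the change follows in part from the choice. Fewer members passed the filter on low counts in these settings, so the medians cover different genes. Ependymal genes were higher in 9 of 14 tested members, among them Tmem212 (1.35) and Ccdc153 (0.88), and lower in 1, Enkur (-0.52). Higher members numbered 7 without rats 7 and 26 and 4 without rats 3, 7, 22 and 26.

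Meningeal fibroblast genes did not pass in 16 of 19 tested members. Lum and Dcn, small proteoglycans of fibrous tissue, were higher at 1.07 and 1.01, and Col6a1 was lower at -0.86. Without rats 7 and 26, 2 were higher and 2 lower. Without rats 3, 7, 22 and 26, which were set aside for their high hippocampal level of these same genes, 15 of 19 were lower and 1 higher, with a median of -1.11 in place of -0.24. Endothelial genes were lower in 7 of 15 tested members and pericyte and smooth muscle genes in 3 of 13, with none higher. The share of lower genes over all tested was 24.3%. Without the same 4 rats the counts of these lists became 11 of 15 and 8 of 14. Ptprb, a phosphatase of endothelial cells, differed by -0.50 and was the endothelial member without overlap; with spike-in scaling the endothelial genes Flt1, Emcn and Adgrl4 no longer passed. The part of meningeal and vascular tissue in other differences was not tested.

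**Figure D3:**
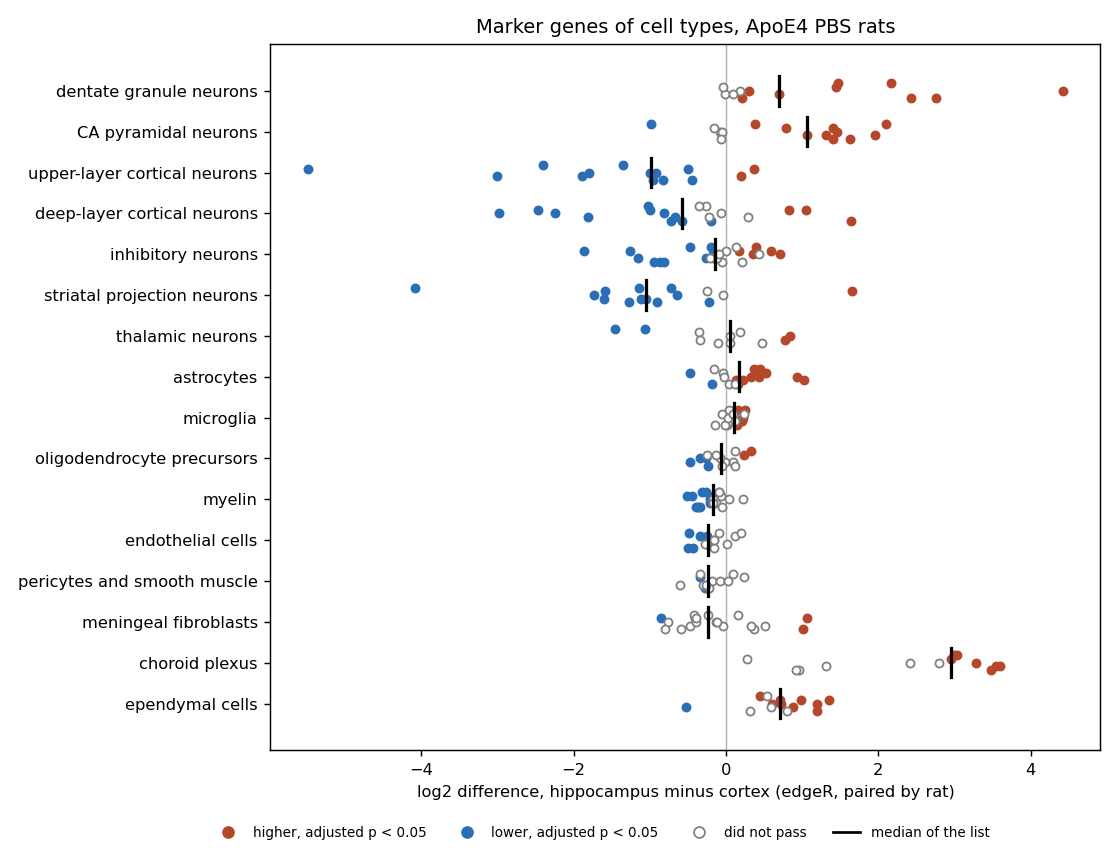
Log2 difference of hippocampus minus cortex (x axis) for each tested member of 16 marker lists (rows), coloured red where higher and blue where lower at an adjusted p under 0.05 and open where not passed; black bars are list medians. Dentate and CA lists lie to the right (medians 0.69 and 1.07), upper-layer and striatal lists to the left (medians -0.98 and -1.05), and the choroid plexus list farthest right (median 2.95).

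Genes of adult neurogenesis and proliferation were split, with 9 of 16 tested members higher and 5 lower. Neurod1, a bHLH factor of newborn granule neurons, measured 21.5 to 34.5 CPM across hippocampal libraries and 7.53 to 13.7 CPM across cortical ones, a difference of 1.63. Bhlhe22 differed by 2.13 and Tubb2b, a tubulin of immature neurons, by 0.58. These 3 did not overlap between regions. Dcx, the doublecortin gene of migrating neurons, was lower at -0.51, and Hopx, a gene of radial glia-like stem cells and astrocytes, at -0.94.

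Immediate early genes, transcribed within minutes of neuronal activity, were lower in hippocampus in 12 of 19 tested members, higher in 4 and not past the test in 3, with a median of -0.89. Egr2, a zinc-finger factor, ran from 1.39 to 3.95 CPM in hippocampus (median 1.96) and from 4.82 to 24.1 CPM in cortex (median 14.4), a difference of -2.60 (SE 0.20, adjusted p = 2.19e-07). Npas4, an activity-dependent bHLH factor, measured 2.04 to 11.3 CPM across hippocampal libraries and 12.1 to 35.7 CPM across cortical ones, a difference of -1.90. Neither overlapped between regions. Homer1, a postsynaptic scaffold gene, differed by -1.21 and Egr4 by -1.24. The higher members were Nr4a3 (1.08), Bdnf (0.84), Jun (0.73) and Fosl2 (0.42).

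The promoters of these genes were searched on both strands, from 250 bases before to 50 bases after the start site, for the cAMP response element TGACGTCA, for the serum response element known as the CArG box, and for TATAAA. RefSeq windows were matched for 14 of the 19 members. TGACGTCA was found in 3 of 14 (21.4%) against 1.83% of 33469 promoters, the CArG box in 2 of 14 (14.3%) against 1.64%, and TATAAA in 4 of 14 (28.6%) against 14.2%. The genes with TGACGTCA were Dusp1, which was lower at -1.03, and Ier2 (-0.14) and Btg2 (-0.12), which did not pass. Egr1 and Egr2 held the CArG box, and Fosb, Junb, Homer1 and Klf4 held TATAAA. The 250 bases before the start site are shown for 1 gene with each of the first pair of motifs, on build GRCr8, 5′ to 3′ on the gene's strand, with the motif in capitals. The match is a description of letters and not a site. Egr2 lies at chr20:21054442-21054691 on the minus strand with the CArG box starting 83 bases before the start site, and Dusp1, a MAP kinase phosphatase gene, at chr10:17184603-17184852 on the plus strand with TGACGTCA starting 124 bases before it.
Egr2: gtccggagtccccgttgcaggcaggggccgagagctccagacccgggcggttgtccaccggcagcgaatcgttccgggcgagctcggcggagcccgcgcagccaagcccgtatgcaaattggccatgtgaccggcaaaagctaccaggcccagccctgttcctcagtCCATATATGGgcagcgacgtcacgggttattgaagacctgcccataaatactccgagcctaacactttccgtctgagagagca
Dusp1: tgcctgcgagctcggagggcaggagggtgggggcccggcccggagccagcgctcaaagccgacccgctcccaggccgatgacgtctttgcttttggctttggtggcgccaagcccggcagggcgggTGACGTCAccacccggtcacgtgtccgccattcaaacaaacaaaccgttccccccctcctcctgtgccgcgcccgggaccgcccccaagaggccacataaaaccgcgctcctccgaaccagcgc

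Ionotropic glutamate receptor genes were split by subunit, with 6 of 18 higher, 7 lower and 5 that did not pass. Gria1, a pore-forming subunit of AMPA receptors, ran from 430 to 555 CPM in hippocampus (median 488) and from 142 to 167 CPM in cortex (median 156), a difference of 1.67 (SE 0.06, adjusted p = 1.92e-10). Gria3 and Gria4 were lower at -0.76 and -0.61, and Gria2 (0.02) did not pass. Among NMDA receptor subunits Grin2b measured 38.3 to 55.5 CPM across hippocampal libraries and 76.4 to 112 CPM across cortical ones, a difference of -0.96, and the obligatory subunit gene Grin1 (0.03) did not pass. Kainate subunits went both ways, with Grik4 at 1.31 and Grik3 at -1.35. Of the metabotropic receptor genes 4 of 8 were lower, led by Grm8 (-2.57), Grm4 (-1.50) and Grm3 (-1.26), and 2 were higher.

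GABA-A receptor subunit genes were lower in 8 of 12 tested members, with a median of -0.52. Gabra5, a subunit of extrasynaptic receptors, was higher, from 154 to 222 CPM in hippocampus against 54.5 to 64.8 CPM in cortex, a difference of 1.62. Its regions were fully separated. Gabra3 (-1.50), Gabrd (-1.27) and Gabrb2 (-1.54) were lower, and Gabra2 (0.75) was higher.

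Serotonin receptor genes were higher in 5 and lower in 4 of 10 tested members, and lower in 2 without rats 3, 7, 22 and 26. Htr1a, an inhibitory receptor, measured 23.3 to 35.3 CPM across hippocampal libraries and 4.48 to 9.93 CPM across cortical ones, a difference of 2.23. Htr2a, an excitatory receptor of cortical pyramidal neurons, measured 3.31 to 9.57 CPM across hippocampal libraries and 28.3 to 41.8 CPM across cortical ones, a difference of -2.30. Htr5b (5.07) and Htr4 (2.82) were higher, and all 4 genes were free of overlap. Mean cortical levels were low for Htr5b and Htr4, at 0.49 and 0.91 CPM. Among 23 dopamine, adrenergic and acetylcholine receptor genes 7 were higher and 10 lower. Chrm5 differed by 3.66 and Drd5 by 2.06, also with low mean cortical levels of 0.42 and 0.48 CPM. Adra1b (-3.27), Chrm2 (-2.04) and the nicotinic subunit gene Chrna4 (-1.89) were lower.

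Neuropeptide genes were lower in 8 and higher in 5 of 16 tested members. Nts, the neurotensin gene, ran from 13.4 to 28.9 CPM in hippocampus (median 21.7) and from 0.647 to 3.54 CPM in cortex (median 1.19), a difference of 3.92. Nmb (2.49) and Cartpt (1.61) were also higher. Cck (-1.13), Crh (-1.27) and Penk (-1.05), the precursors of cholecystokinin, corticotropin-releasing hormone and enkephalin, were lower.

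Potassium channel subunit genes were lower in 23 and higher in 10 of 39 tested members, with a median of -0.49. Kcnh5, an ether-a-go-go channel gene, ran from 0.0824 to 1.22 CPM in hippocampus (median 0.352) and from 19.1 to 32.8 CPM in cortex (median 24.5), a difference of -5.49 (SE 0.26, adjusted p = 1.86e-09). Kcnh7 (-3.86), Kcns1 (-3.15) and Kcnf1 (-2.52) were lower, and Kcng2 ran the other way, from 35.0 to 47.6 CPM in hippocampus against 4.90 to 8.11 CPM in cortex (2.64). None of these overlapped between regions. Sodium and calcium channel genes were lower in 16 and higher in 6 of 30, with Scn1a (-1.84) and Cacnb4 (-1.63) lower and Cacna1h (1.77), Scn3b (1.71) and Cacng8 (1.62) higher.

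**Figure D4:**
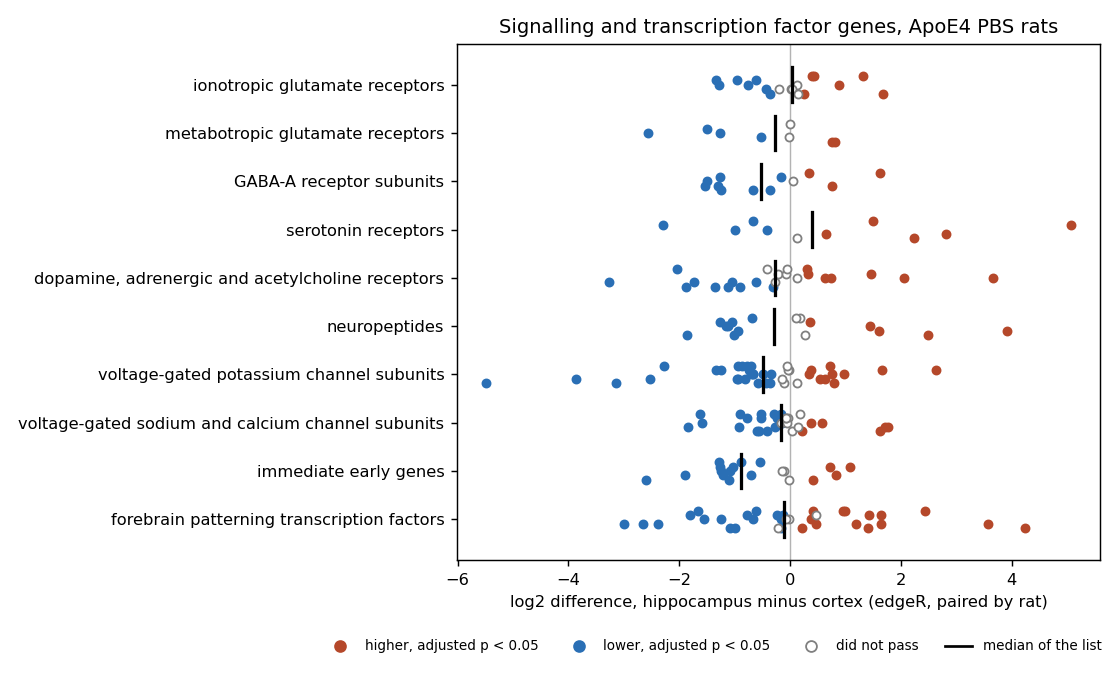
Log2 difference of hippocampus minus cortex (x axis) for each tested member of 10 lists of receptors, channels, peptides and transcription factors (rows), coloured red where higher and blue where lower at an adjusted p under 0.05 and open where not passed; black bars are list medians. Most lists hold members on both sides of 0, and the immediate early gene and GABA-A lists have medians of -0.89 and -0.52.

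Forebrain patterning transcription factors were called in 30 of 34 tested members, 14 higher and 16 lower, and in 22 the regions did not overlap. Of all tested genes 48.4% were called and 19.8% did not overlap. Lhx9 (4.24) and Neurog2 (3.57) had the largest positive values. Mef2c, a MADS-box factor of excitatory neurons, ran from 105 to 133 CPM in hippocampus (median 116) and from 627 to 787 CPM in cortex (median 756), a difference of -2.65 (SE 0.06, adjusted p = 7.89e-12). The nuclear receptor genes Nr2f1 and Nr2f2 lay on opposite sides at -0.68 and 1.43, and the homeobox genes Emx1 and Emx2 at -0.77 and 0.96.

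Genes of cell recognition were divided within each family. Of the Eph receptors and ephrins 9 of 20 were higher and 6 lower: Epha8 measured 48.6 to 71.8 CPM across hippocampal libraries and 5.75 to 8.36 CPM across cortical ones (3.11), and Efna5, an ephrin ligand, from 0.95 to 1.78 CPM and from 7.78 to 11.1 CPM (-2.93). Cadherin genes were lower in 11 and higher in 3 of 17, with Cdh7 (-2.34), Cdh6 (-2.21) and Cdh18 (-1.48) lower and Cdh9 (1.72) higher; 5 were higher without rats 7 and 26 or without rats 3, 7, 22 and 26. Of the synaptic organisers 8 of 16 were lower, led by the cerebellin gene Cbln2 (-2.61) and by Lrrtm3 (-1.30), and 4 were higher, with C1ql2 the largest and Nptx1, a neuronal pentraxin gene, at 0.94.

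Stress hormone genes included Nr3c2, described above, and Fkbp5, a glucocorticoid-induced chaperone of steroid receptors, which measured 61.5 to 80.9 CPM across hippocampal libraries and 39.0 to 44.7 CPM across cortical ones (0.77). Crhr1, the receptor of corticotropin-releasing hormone, was lower at -1.82. In the list as a whole 4 of 12 were higher and 5 lower. Perineuronal net and matrix genes were higher in 4 and lower in 3 of 16, with 5 lower without rats 3, 7, 22 and 26. Over all tested genes 24.1% were higher and 24.3% lower, so these shares were near the background. The higher ones included the link protein gene Hapln4 (1.07) and the lectican genes Bcan (0.49) and Ncan (0.36).

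Lipid transport genes were higher in 9 and lower in 2 of 21 tested members, with a median of 0.17. Reads assigned to the donor APOE row, which the authors named for ApoE3 and which also carries counts in ApoE4 rats, ran from 1754 to 2351 CPM in hippocampus (median 2037) and from 1228 to 1738 CPM in cortex (median 1525), a difference of 0.44 (SE 0.05, adjusted p = 1.41e-05) without overlap. For the endogenous Apoe row the range was 5.60 to 6.87 CPM in hippocampus and 4.17 to 5.92 CPM in cortex, a difference of 0.30 with overlap (adjusted p = 0.0204), which no longer passed without rat 3 or with DESeq2. Lpl, lipoprotein lipase, measured 56.5 to 108 CPM across hippocampal libraries and 8.80 to 15.3 CPM across cortical ones (2.60). Cholesterol synthesis genes were lower in 7 and higher in 6 of 21, where over all tested genes 24.3% were lower and 24.1% higher. Of the mitochondrially encoded genes 6 of 13 were lower and none higher, by at most -0.29, and 2 were lower without rats 7 and 26 or without rats 3, 7, 22 and 26. Complement genes were higher in 5 of 14, including C1s (0.69) and Clu (0.40); without rats 3, 7, 22 and 26, 4 were higher and 3 lower.

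The regional difference was next compared between ApoE4 and ApoE3 PBS rats, which share no library. Rat numbers ran in separate blocks by genotype, so a batch that follows them cannot be told apart from genotype. Of 489 genes at least 2-fold higher in hippocampus in ApoE4 rats and tested in both, 395 were so in ApoE3 rats (80.8% of the ApoE4 and 73.1% of the ApoE3 genes), and of 572 lower genes 424 were (74.1% and 87.1%). Over all genes tested, 3.76% were called at 2-fold in the higher and 3.44% in the lower direction in ApoE3 rats. In ApoE4 rats given doxorubicin, where these shares were 3.25% and 4.4%, 418 of 495 higher genes (84.4%) and 507 of 575 lower genes (88.2%) were called at 2-fold in the same direction.

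A test of the difference itself over the 32 PBS libraries called 6 genes (0.0389% of 15415) with a more positive and 17 (0.11%) with a more negative regional difference in ApoE4 than in ApoE3 rats. Tmtc4, a transmembrane O-mannosyltransferase, had 27.9 to 38.4 CPM in ApoE4 hippocampus, 21.1 to 29.5 in ApoE4 cortex, 52.8 to 61.4 in ApoE3 hippocampus and 22.9 to 29.5 in ApoE3 cortex, and its regional difference was smaller by 0.70 on the log2 scale in ApoE4 rats (interaction -0.70, SE 0.07, adjusted p = 1.52e-05). Only the ApoE3 hippocampal libraries lay apart from the rest. Pdyn had 41.5 to 90.3 CPM in ApoE4 hippocampus and 82.7 to 136 in ApoE3 hippocampus, with 15.0 to 26.1 and 11.3 to 25.2 CPM in cortex (interaction -0.93, adjusted p = 0.00446). Dpyd, the enzyme that degrades pyrimidines, differed by 0.92 between regions in ApoE4 and by 1.91 in ApoE3 rats (interaction -0.99, adjusted p = 0.0012).

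In the other direction Plekhh2 had 54.0 to 70.1 CPM in ApoE4 hippocampus and 34.2 to 46.7 in ApoE4 cortex, but 35.0 to 45.9 and 35.8 to 52.2 CPM in the same regions of ApoE3 rats (interaction 0.74, adjusted p = 0.00203). Lypd1 (0.62), Plk5 (0.81), Pcp4 (0.58), Nr1d1 (0.31) and Dtx3 (0.28) were the other genes of this direction, and Trim54 (-1.19), Chst8 (-0.73) and Rasgrp4 (-1.53) belonged to the first. Summed meningeal markers also differed, with medians of 527 and 583 CPM in hippocampus and cortex of ApoE4 rats and 624 and 303 CPM in those of ApoE3 rats. For pericyte and smooth muscle markers the medians were 289 and 367 CPM in ApoE4 rats and 418 and 278 CPM in ApoE3 rats. Endothelial markers had medians of 520 and 609 CPM in ApoE4 rats and 590 and 511 CPM in ApoE3 rats, and the endothelial gene Tek was among the called genes (interaction -0.60, adjusted p = 0.0491). The part of these tissues in the interactions was not tested. Without rats 7 and 26 the counts fell to 3 and 4, with Tmtc4, Dpyd, Pdyn, Plekhh2 and Lypd1 still past the threshold. Leaving out 1 rat at a time gave 1 to 24 and 3 to 87 genes.

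**Figure D5:**
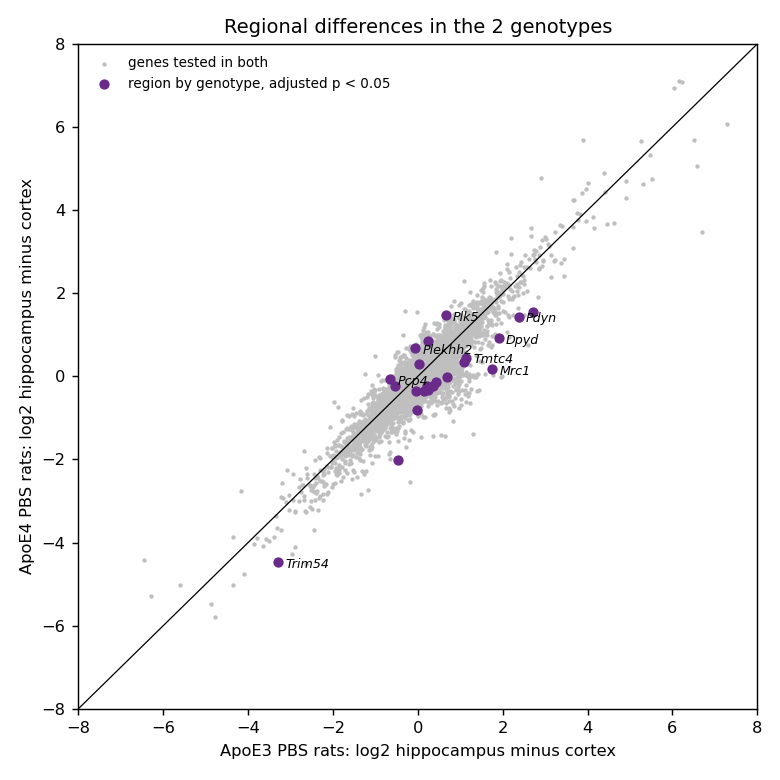
Log2 difference of hippocampus minus cortex in ApoE3 PBS rats (x axis) and ApoE4 PBS rats (y axis). Grey points are the 14714 genes tested in both, and the black line is that of equality. Purple points are 22 of the 23 genes whose regional difference differed between the genotypes (interaction test, adjusted p under 0.05). The other gene was not tested in both. Tmtc4, Dpyd and Pdyn lie below the line and Plekhh2, Plk5 and Pcp4 above it.

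No gene passed the test of a regional difference that varied by sex (0 of 14835, with 560 or 3.77% at an unadjusted p under 0.05, and 0 with DESeq2) or by doxorubicin in ApoE4 rats (0 of 15432, with 545 or 3.53%, and 0 with DESeq2). Rgs6, with the smallest p by sex, had a female minus male value of 0.49 and did not pass (adjusted p = 0.92). By treatment, Camk1g had a value of 0.35 and Cep41 of -0.50, neither of which passed (adjusted p = 0.9998). These results do not show that sex or treatment left the regional difference as it was.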

How the data were processed

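RNA of frozen hippocampus and cortex was extracted with a Qiagen RNeasy Plus Universal kit and libraries were made with the NEBNext Ultra II kit, per the labels' protocols. The deposited count tables hold whole-number counts of reads per rat gene that the authors obtained after alignment with STAR 2.5.2b, per the submitters' processing notes. The counter, genome build and strandedness are not given in the sources used here. Without strand, reads of overlapping and antisense genes cannot be told apart. Each table has 32644 rows: 32551 Ensembl genes, 92 ERCC spike-ins, left out of the tests, and 1 donor APOE row. Symbols came from the authors' tables (15432 rows), and 612 of 664 listed symbols matched, 5 through a synonym.

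Differences were estimated with edgeR 4.0.16 (R 4.3.3): filterByExpr, TMM scaling, and the quasi-likelihood F-test with rat as block, Benjamini-Hochberg adjustment over all tested genes and a threshold of 0.05. Interaction terms tested sex, genotype and doxorubicin. Each SE is the absolute log2 difference over the square root of F. The 2 libraries of a number come from 1 animal. Deviations from the group means correlated at -0.03 to 0.30 within rats (median 0.19, 8 pairs). Between rats they correlated at -0.47 to 0.31 (median -0.04, 56 pairs). The best match in the other region was the same rat for 4 of 8 hippocampal and 3 of 8 cortical libraries. The 8 rats per group and 12.3M to 15.8M counts per library limit the precision. On simulated data the regional fit recovered 92% of genes changed by 0.5 and 100% of those changed by 1 on the log2 scale (14909 genes), with 4.95% of its calls false. The genotype interaction recovered 70% and 99% (15343 genes), with 6.63% of its calls false. The simulated counts had the same dispersion for every gene and no differences between rats, and 100 genes of each size were changed. The data differ in these respects, so the shares are not error rates of the calls reported here.

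Genes were named by rule: the region markers and APOE rows; the 15 largest differences in each direction among genes called at 2-fold with a mean log2 CPM of at least 2 and one sign in 8 rats; the 3 smallest p in each direction; the 4 smallest p of each list; and up to 6 genes in each direction of each interaction, or 3 where none passed. Other list members named were chosen after their values were seen. Not every gene selected by the rule is reported here. The comparison and the 37 gene lists were chosen with earlier results of these data known. Alternatives were DESeq2 1.42.0, other scalings and filters, each sex alone, a joint fit, a fit without the block, and leaving out rats.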

Additional observations from a re-analysis of the deposited data

Results flagged for a closer look

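In groups of 8 libraries, 52 sets of values were searched for a highest or lowest library far from the rest, of which chance flags about 1 in 20; 4 were found. The hippocampal library of rat 22 had 2.44% of its counts on ERCC spike-ins, with the next at 1.61%. The cortical library of rat 26 was the lowest in the mean log2 CPM of 3 lists: meningeal fibroblasts at 2.96 (next 3.72), pericytes and smooth muscle at 3.90 (next 4.27) and thalamic neurons at 3.24 (next 3.41).

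For 12 named genes the regional difference itself differed between ApoE4 and ApoE3 PBS rats in the interaction test. The ApoE4 minus ApoE3 values on the log2 scale were 0.74 for Plekhh2, 0.81 for Plk5, 0.58 for Pcp4, 0.31 for Nr1d1, 0.28 for Dtx3 and 0.62 for Lypd1. They were -0.70 for Tmtc4, -0.99 for Dpyd, -0.93 for Pdyn, -1.19 for Trim54, -0.73 for Chst8 and -1.53 for Rasgrp4. Of these 12 genes, 2 kept their direction and call in all 23 settings run.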

How the results depend on the processing

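The counts of 3576 higher and 3603 lower genes stayed within 1.5 times under DESeq2 (3144 and 3201) and the other scalings and filters except ERCC spike-in scaling, which gave 1513 and 1319. Male rats alone gave 1958 and 2302 and female rats alone 2375 and 2580; each has fewer samples. With at least 50 counts in each of 8 libraries, which tests fewer genes, 313 genes were at least 2-fold higher. Leaving out 1 rat at a time gave 3224 to 3514 higher and 3333 to 3569 lower genes, and 494 to 540 and 567 to 611 at 2-fold. Of 172 genes named for region, 125 kept their direction and call in all 20 settings; Pcp4, at -0.07 with all rats, was 0.10 in female rats alone. Of 12 genes named for the genotype interaction, 2 kept theirs in all 23 settings. With ERCC scaling 33 of the 172 genes named for region, mostly glial, vascular and mitochondrial genes of small difference, no longer passed. Without the replicate block, the unpaired counts were 3680 and 3625, and 556 and 568 at 2-fold; the genotype interaction gave 5 and 15, and Nr1d1 and Lypd1, and for region Hbb, Hba-a2 and C3ar1, no longer passed.

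The genotype interaction was the least settled, at 6 and 17 genes: DESeq2 gave 25 and 75, no filter on low counts 17 and 76, ERCC scaling 0 and 18, and leaving out rats 7 and 26 gave 3 and 4. Leaving out 1 rat gave 1 to 24 and 3 to 87, lowest without rat 26 and highest without rat 58; leaving out rats 1, 3, 19, 22, 24, 41, 43, 45, 56, 59 or 61 also moved a count by over 1.5 times. The interaction by sex gave 0 and 5 under ERCC scaling and 0 and 0 without any 1 rat; that by treatment was 0 and 0 in every setting run. The causes were not tested.

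The choice of rats 7 and 26, and of rats 3, 7, 22 and 26, followed from the summed choroid plexus and meningeal markers of their hippocampal libraries, so values of those lists without them follow in part from the choice.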

Other observations

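The spread between rats was compared within each region over 11283 genes of at least moderate level. The median SD of log2 CPM was 0.132 in hippocampus and 0.117 in cortex. An SD over 1 was found for 73 genes in hippocampus and 6 in cortex, and for 40 in hippocampus without rats 7 and 26. Ttr, the thyroid hormone carrier of the choroid plexus, had the highest hippocampal SD at 3.89, and 2.70 in cortex. Enpp2, the autotaxin gene, had 1.99 in hippocampus and 0.31 in cortex, and 0.30 in hippocampus without rats 7 and 26. The complement gene C7 had 2.07 in hippocampus with all 8 rats and 2.11 without rats 7 and 26.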
